A study of Mus musculus with 8 samples.

Results

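Blood endothelium, the cell layer that lines every blood vessel, was followed in the mouse uterus through 9 genes chosen by name as markers of these cells: Pecam1, Cdh5, Cd34, Egfl7, Ramp2, Flt1, Kdr, Eng and Esam. Of these, 6 are among the 5828 genes with values here (Cdh5, Cd34, Egfl7, Ramp2, Eng and Esam), and Pecam1, Flt1 and Kdr are not analysed here. The values come from Visium, in which a tissue section lies on a slide of barcoded capture spots and unique molecular identifiers (UMIs) count the messenger RNA molecules bound by each. The mutant animals were 4 Ezh2cKO females (KO below, genotype EZ fl/fl; Prcre/+), in which floxed Ezh2 alleles meet a Cre expressed by the progesterone receptor gene. Their controls were 4 females labelled WT (genotype EZ fl/fl), which carry the same floxed alleles without the Cre, and both groups were of mixed C57BL/6 and 129SvEv background. The 8 females came from 4 litters, each of which gave 1 KO and 1 WT. All animals were ovariectomized at postnatal day 71 ± 4 and their uteri collected at day 112 ± 11, so KO and WT alike lacked ovarian hormones. The authors named spots epithelium or stroma and pooled them over the animals of a genotype, which leaves 4 pools: KO epithelium, WT epithelium, KO stroma and WT stroma.

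Endothelial cells hold to one another by vascular endothelial cadherin and related adhesion molecules, and they sense growth factors such as vascular endothelial growth factor, adrenomedullin and ligands of the transforming growth factor beta family through surface receptors. In the uterus, vessels run through the stroma and muscle and end in a capillary net beneath the epithelium, which itself holds no vessels. Ezh2 encodes the enzyme that places the repressive histone mark H3K27me3. The Cre follows the progesterone receptor, and whether endothelial cells had lost Ezh2 was not tested, since Ezh2 itself is not analysed here.

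Promoter windows are shown for the measured genes with an entry in the RefSeq table (build GRCm38.p6). They run from 250 bases before to 50 bases after an annotated start. Capitals mark GGAAG on either strand (CTTCC on the strand printed), the core letters bound by ETS factors, a family with known roles in endothelial genes. Egfl7 has 3 annotated windows, of which the most upstream is printed.
Cd34, chr1:194938571-194938870, plus strand: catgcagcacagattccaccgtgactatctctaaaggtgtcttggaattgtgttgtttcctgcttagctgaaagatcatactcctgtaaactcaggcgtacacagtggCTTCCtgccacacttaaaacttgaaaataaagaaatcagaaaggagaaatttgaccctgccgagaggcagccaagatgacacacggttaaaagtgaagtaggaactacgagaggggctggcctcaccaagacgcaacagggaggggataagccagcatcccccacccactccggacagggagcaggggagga
Egfl7, chr2:26580833-26581132, plus strand: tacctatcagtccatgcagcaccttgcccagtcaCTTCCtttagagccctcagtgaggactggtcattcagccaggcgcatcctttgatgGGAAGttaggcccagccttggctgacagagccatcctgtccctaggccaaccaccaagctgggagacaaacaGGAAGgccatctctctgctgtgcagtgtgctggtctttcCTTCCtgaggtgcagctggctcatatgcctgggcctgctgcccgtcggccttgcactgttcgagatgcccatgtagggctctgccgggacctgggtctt
Eng, chr2:32646345-32646644, plus strand: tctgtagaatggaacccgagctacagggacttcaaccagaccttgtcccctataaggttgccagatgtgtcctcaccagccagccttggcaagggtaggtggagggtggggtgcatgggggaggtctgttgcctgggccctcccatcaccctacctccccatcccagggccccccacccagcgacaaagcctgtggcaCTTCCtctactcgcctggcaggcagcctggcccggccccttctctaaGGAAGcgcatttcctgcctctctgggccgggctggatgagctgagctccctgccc
GGAAG occurred 1 time in the Cd34 window, 4 times in the Egfl7 window and 2 times in the Eng window, but 71.4% of all 32851 windows of this length hold it. The second Egfl7 window held 3 matches and the third none. CCGGAA, whose last letters can overlap GGAAG, was found in none of the windows of measured genes and in 14.9% of all windows. TGATAA, a motif of GATA factors, occurred 1 time, in the second Egfl7 window, and 9.05% of all windows hold it. The Sp1 motif GGGCGG occurred 4 times in the third Egfl7 window, and 35.7% of all windows hold it. AGATAA, which shares its last letters with the GATA motif above, was in none of the measured genes' windows and in 11.2% of all. The TATA box letters TATAAA were in none either and in 13.6% of all. Both strands were searched. These are matches of letters only.

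The pools differ in depth and in their marker levels. Recovered UMI totals over the listed genes were 1552958 (KO) and 1428541 (WT) for the epithelium pools, and 947663 (KO) and 416747 (WT) for the stroma pools. These totals run over 5823, 5821, 2752 and 1782 genes in the same order, so they do not measure depth alone. Judged by size factors, KO epithelium was 2.75, WT epithelium 2.54 and KO stroma 2.01 times as deep as WT stroma, and levels below are UMIs divided by that depth. Markers of simple epithelium, summed over the 9 with values in all pools, stood at levels of 1949 (KO) and 2273 (WT) in the epithelium pools, and 652 (KO) and 287 (WT) in the stroma pools. Between compartments in WT all 9 had an average above 1, the listing threshold, in epithelium alone, which fixed their direction there. Each spot can hold several cells of different types. Fewer endothelial cells and less RNA per cell cannot be told apart. Each pool gives 1 value with no spread between animals, and every interval here covers counting error only.

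The junction genes had lower levels in the epithelium pools than in the stroma pools. Cdh5 (chromosome 8, 104101625 to 104144511, plus strand, GRCm38) encodes vascular endothelial cadherin. It had 136 UMIs (KO) and 102 UMIs (WT) in the epithelium pools and 171 (KO) and 104 (WT) in the stroma pools, which makes levels of 49.4, 40.1, 84.99 and 104 in the same order. Esam (chromosome 9, 37528078 to 37538319, plus strand) encodes an adhesion molecule of endothelial tight junctions. It had 89 UMIs (KO) and 86 UMIs (WT) in the epithelium pools and 139 (KO) and 104 (WT) in the stroma pools, or levels of 32.3 and 33.8, against 69.1 and 104. For both genes the stroma pools lay above the epithelium pools of either genotype, and the intervals of the epithelium pools overlapped each other. Between compartments Esam was listed through stroma alone in both genotypes, and Cdh5 in WT, which fixed those directions.

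Cd34 (chromosome 1, 194938819 to 194961279, plus strand) encodes a surface sialomucin of endothelium that is also made by blood progenitors and by tissue fibroblasts. The epithelium pools held 303 (KO) and 143 (WT) of its UMIs, and the stroma pools 439 (KO) and 216 (WT). Its level was 110.0 (95% Poisson interval 98.0 to 123) in KO epithelium and 56.3 (47.4 to 66.3) in WT epithelium, against 218 (198 to 240) in KO stroma and 216 (188 to 247) in WT stroma. The stroma pools had nearly the same level, and the KO epithelium pool lay above the WT epithelium pool with no overlap of intervals. Egfl7 (chromosome 2, 26580014 to 26593120, plus strand) encodes a secreted matrix protein of endothelium, and its locus also holds the microRNA gene Mir126a. It had 142 UMIs (KO) and 117 UMIs (WT) in the epithelium pools and 221 (KO) and 122 (WT) in the stroma pools, or levels of 51.5 and 46.0, against 109.8 and 122. Both epithelium pools again lay below both stroma pools. In GENCODE release M21 it shares 264 exon bases with Gm20532 on the same strand and 64 with Agpat2 on the opposite strand, Cd34 shares 148 with the antisense gene Gm16897, and Eng shares 61 with Fpgs on the opposite strand. Whether counting used the strand is not stated. Between compartments in WT, Cd34 and Egfl7 were listed through stroma alone, which fixed their direction there.

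The receptor genes gave a mixed picture. Eng (chromosome 2, 32646595 to 32682669, plus strand) encodes endoglin, a co-receptor for ligands of the transforming growth factor beta family. It had 107 UMIs in KO epithelium, 64 in WT epithelium and 121 in KO stroma, or levels of 38.8, 25.2 and 60.1, and its value in WT stroma is not analysed here. Ramp2 (chromosome 11, 101246028 to 101259546, plus strand) encodes the accessory protein that turns the calcitonin receptor-like receptor into an adrenomedullin receptor. It had 299 UMIs (KO) and 214 UMIs (WT) in the epithelium pools and 244 (KO) and 103 (WT) in the stroma pools. Its levels were 109 and 84.2 in these epithelium pools, against 121 and 103 in the stroma pools, and within each genotype the intervals of the compartments overlapped. In the same annotation, 1 of 8 Ramp2 transcripts runs on through the neighbour Vps25 and shares 1103 exon bases with it on the same strand, so its count is uncertain to that extent.

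**Figure D1:**
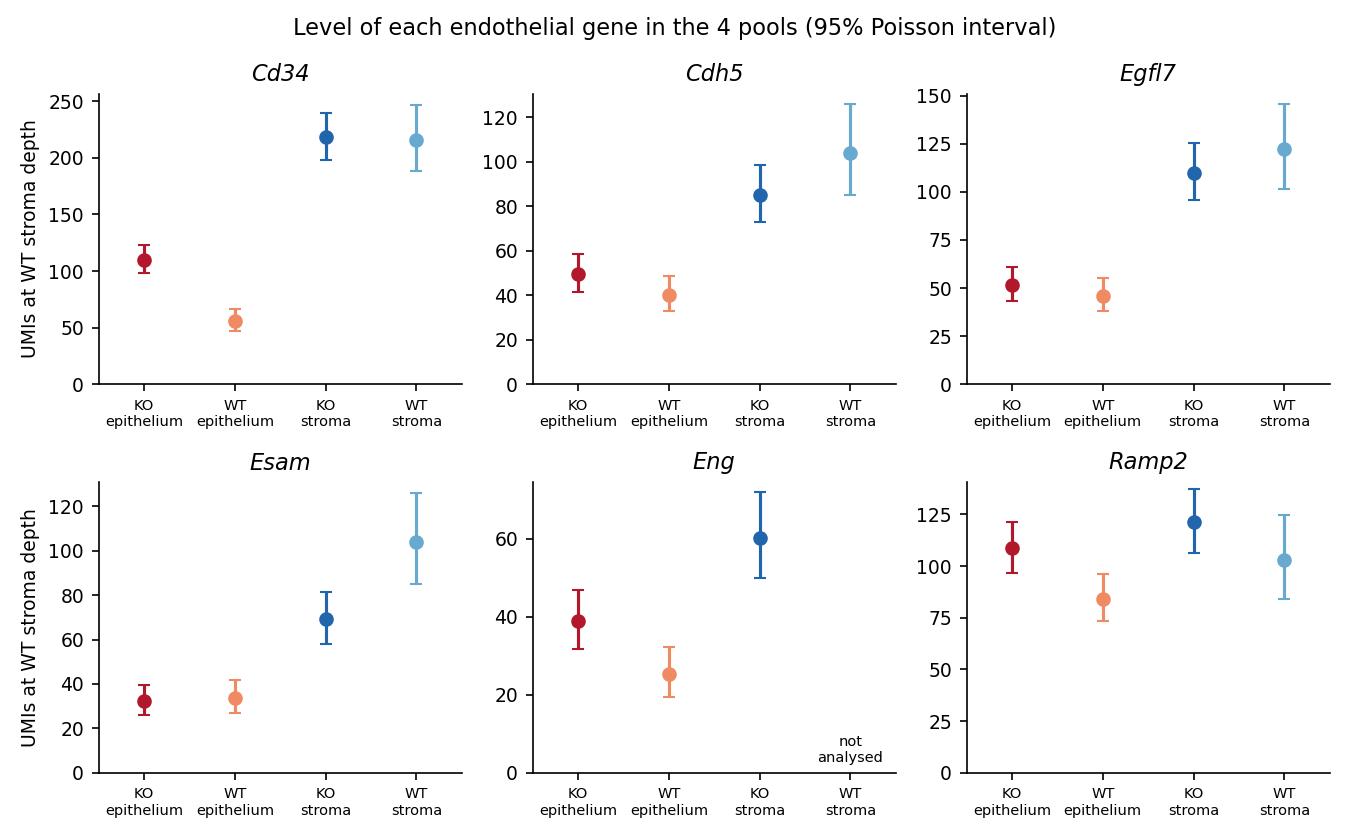
Level of the 6 measured endothelial genes in the 4 pools, as UMIs scaled to the depth of the WT stroma pool, with 95% Poisson intervals. Cd34, Cdh5, Egfl7 and Esam sit lower in both epithelium pools than in both stroma pools. Between compartments in WT they were listed through stroma alone, as was Esam in KO, which fixed those directions. The Ramp2 intervals of KO epithelium (96.6 to 122) and KO stroma (107 to 137) overlap.

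The comparison of compartments asked where in the uterus these transcripts were found. In KO uterus 3 of 6 genes were called lower in epithelium than in stroma (the authors' deposited adjusted p under 0.05), where 4.45% of all 2744 listed genes were called lower. Egfl7 was at 0.469-fold of its stroma level (95% counting interval 0.377 to 0.582), Esam at 0.468-fold (0.354 to 0.615) and Cd34 at 0.504-fold (0.434 to 0.585). The authors' deposited table gives adjusted p-values of 0.00316 for Cd34, 0.0101 for Egfl7 and 0.0119 for Esam. Cdh5 had a ratio of 0.581 (0.460 to 0.732), Eng 0.646 (0.493 to 0.845) and Ramp2 0.895 (0.753 to 1.06). They were not called, since the authors' deposited table gives adjusted p-values of 0.110 for Cdh5, 0.363 for Eng and 1 for Ramp2. The median log2 ratio was -0.89 over the 6 genes and -0.01 over all listed genes. The calls of Egfl7 and Esam end at an adjusted p of 0.01, which leaves 1 called gene.

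In WT uterus 4 of 5 genes were called lower in epithelium, where 15.7% of all 1769 listed genes were. Cd34 was at 0.260-fold of its stroma level (0.209 to 0.323), Esam at 0.325-fold (0.242 to 0.437), Egfl7 at 0.377-fold (0.290 to 0.490) and Cdh5 at 0.386-fold (0.291 to 0.512). The authors' deposited table gives adjusted p-values of 2.41e-11 for Cd34, 1.41e-06 for Esam, 0.000104 for Egfl7 and 0.00126 for Cdh5. Ramp2 had a ratio of 0.817 (0.643 to 1.04; adjusted p 0.739, authors' deposited table), and its interval overlaps none of the other 4. The median log2 ratio was -1.41 over the 5 genes and 0.02 over all listed genes. A gene is listed where its average is above 1 in at least 1 group of a table. The 4 called genes passed that filter in WT stroma alone, so the listing had already fixed their direction in this table. In the KO table Cd34, Egfl7, Cdh5 and Ramp2 were above 1 in both groups, and Esam and Eng in stroma alone. All 5 genes of the WT table were also above 1 in both groups of the epithelium genotype table, whose listing does not depend on stroma. Averages are scaled within each comparison, and Cd34 in WT epithelium averaged 2.51 there against 0.807 in the WT table. That listing therefore does not undo the fixed direction of the WT contrast.

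**Figure D2:**
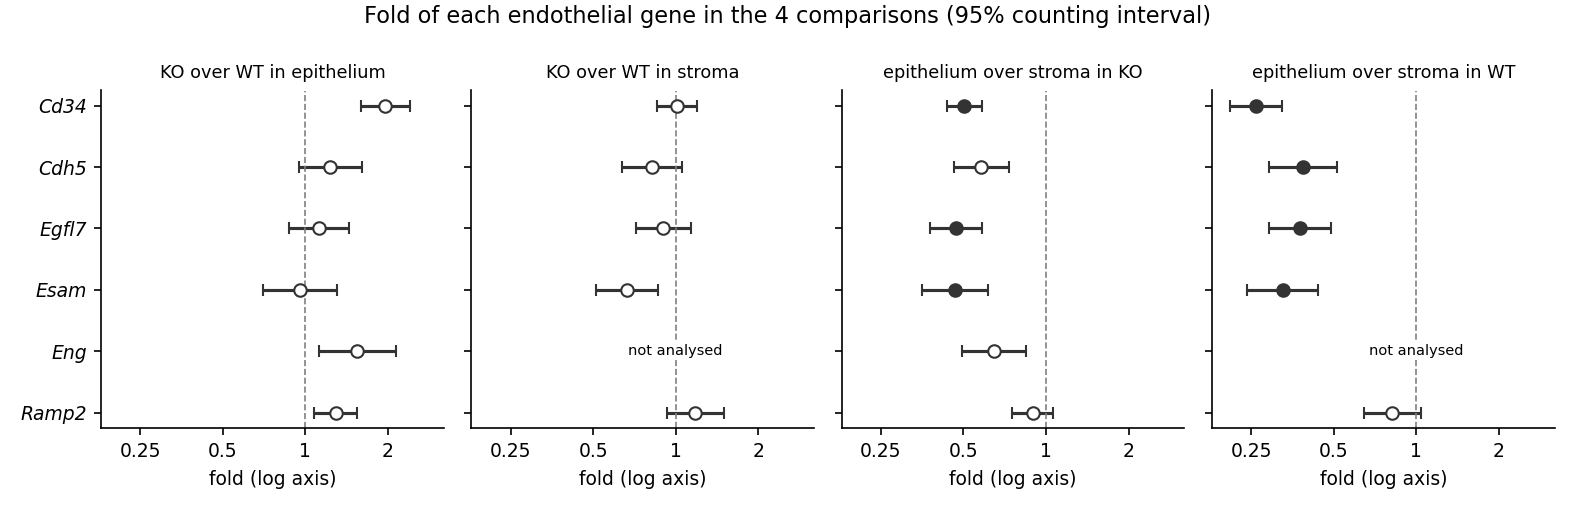
Fold of each measured endothelial gene in the 4 comparisons on a log axis, with exact 95% counting intervals; filled points carry the authors' adjusted p under 0.05. Filled points occur in the compartment comparisons only (3 genes in KO and 4 in WT), and Ramp2 stands at 0.895 in KO and 0.817 in WT.

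The contrast between compartments was smaller in KO than in WT for all 5 genes with values in every pool. Summed over these 5, the level in epithelium was 0.583 of that in stroma in KO and 0.401 in WT. The log2 ratio differed by 0.95 for Cd34 (KO minus WT), 0.59 for Cdh5, 0.52 for Esam, 0.31 for Egfl7 and 0.13 for Ramp2. Cd34, Esam, Egfl7 and Cdh5 were listed between compartments in WT through stroma alone, which favours a low WT ratio. A higher log2 ratio in KO was common among genes lower in epithelium in WT. Of 855 such genes with values in every pool, 689 (80.6%) had one, with a median difference of 0.23. These 855 were likewise chosen by their WT ratio. Over all 1755 genes with values in every pool, 47.1% had a higher log2 ratio in KO, with a median difference of -0.02. The part of this choice in the smaller contrast was not tested. The difference itself was not tested for any gene, since the tables give no spread between animals.

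**Figure D3:**
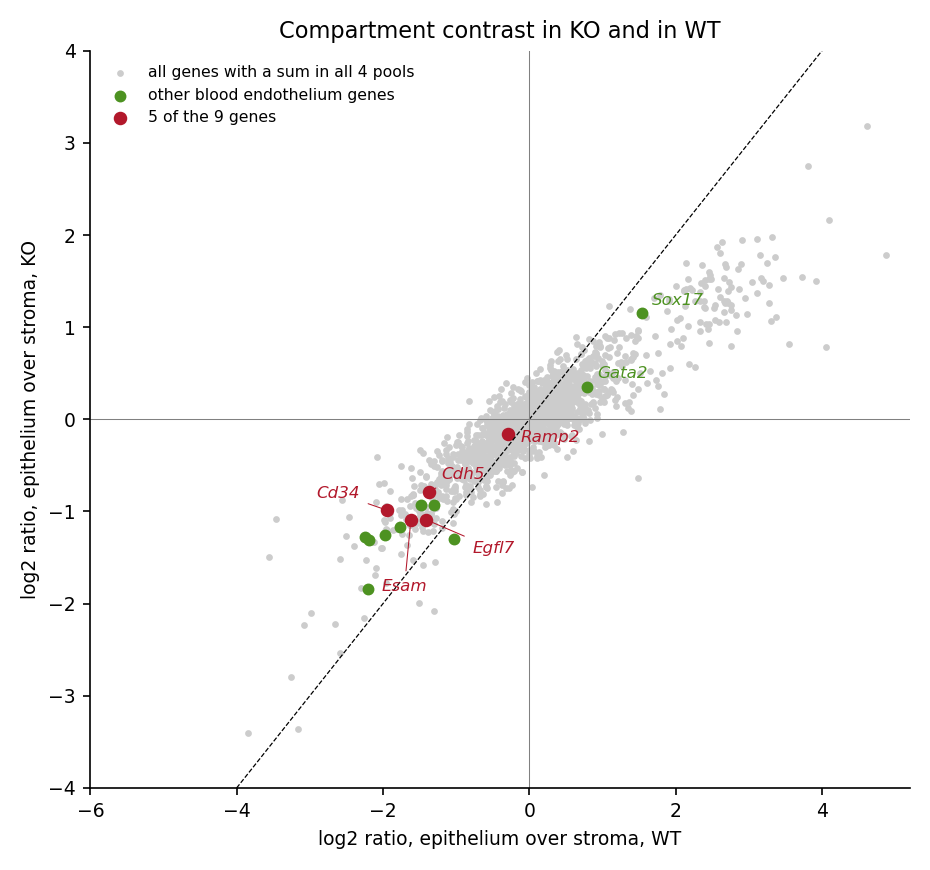
Log2 ratio of epithelium over stroma in KO (vertical) and in WT (horizontal) for the 1755 genes with values in all 4 pools, with the dashed line marking equal ratios. The 5 endothelial genes lie above the line, Cd34 furthest from it (-0.99 in KO and -1.94 in WT), and Sox17 and Gata2 lie on the epithelial side in both genotypes.

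The genotype comparison asked whether loss of Ezh2 goes with a change in these transcripts. In epithelium 0 of 6 genes were called, where 0.120% of all 5811 listed genes were, and all 6 had an average above 1 in both genotypes. Cd34 had 1.96 times its WT level in KO (95% counting interval 1.60 to 2.40), and 99.1% of listed genes had a lower ratio. The authors' deposited table gives Cd34 an adjusted p of 0.634 and the other 5 genes an adjusted p of 1. The ratio of KO over WT was 1.54 for Eng (1.12 to 2.14), 1.29 for Ramp2 (1.08 to 1.54), 1.23 for Cdh5 (0.945 to 1.61), 1.12 for Egfl7 (0.871 to 1.44) and 0.955 for Esam (0.702 to 1.30). Esam turns to 1.03 with folds set relative to the median gene, whose log2 ratio was -0.10. The summed UMIs of the 6 were 1076 in KO and 726 in WT, a ratio of 1.37 (1.24 to 1.505), and 1.22 without Cd34. The 13 other listed blood endothelium genes described further on summed to 2874 in KO and 2727 in WT. Their ratio was 0.972 (0.923 to 1.03), with 9 of the 13 higher in KO and 4 lower (median log2 ratio 0.06). The 4 lower include Sox17 (0.825-fold) and Gata2 (0.712-fold), which were above 1-fold in epithelium over stroma in both genotypes. Markers of stromal fibroblasts were also higher in the KO epithelium pool, with 9062 UMIs in KO and 5998 in WT over 11 genes (1.39-fold, 1.35 to 1.44; 9 of 11 higher, none called). Their part in the endothelial values was not tested.

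In stroma 0 of 5 genes were called, where 1.51% of all 1191 listed genes were. Esam had the lowest ratio of KO over WT, 0.664 (0.512 to 0.865; adjusted p 0.873, authors' deposited table), and it was listed through WT stroma alone. The other 4 were above 1 in both genotypes, and the authors' deposited table gives each an adjusted p of 1. Their ratios were 0.817 for Cdh5 (0.637 to 1.05), 0.900 for Egfl7 (0.719 to 1.13), 1.01 for Cd34 (0.856 to 1.19) and 1.18 for Ramp2 (0.932 to 1.497). Cd34 turns to 0.991 when scaled by total UMIs. The 5 genes together had 1214 UMIs in KO and 649 in WT, a ratio of 0.930 (0.845 to 1.02). The tables do not give unadjusted p-values. In the same pools, smooth muscle genes were lower in KO in 11 of 11 listed cases, 4 of them called (2802 UMIs in KO and 2584 in WT, 0.539-fold, 0.511 to 0.569). Of these 11, 4 were listed through WT stroma alone, which fixed their direction, and they include 2 of the 4 called. The 4 listed simple epithelium markers (890 UMIs in KO and 176 in WT, 2.51-fold, 2.14 to 2.97, none called) were all listed through KO stroma alone, so their direction was fixed as well. The part of both lists in the endothelial values was not tested.

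The make-up of the endothelial UMIs differed between pools for Cd34, Ramp2 and Esam. Cd34 held 31.3% of the 5 genes' UMIs in KO epithelium (95% Clopper-Pearson interval 28.4 to 34.3), 21.6% in WT epithelium (18.5 to 24.9), and 36.2% (KO) and 33.3% (WT) in the stroma pools. Ramp2 held 30.9% in KO epithelium and 32.3% in WT epithelium, against 20.1% in KO stroma (17.9 to 22.5) and 15.9% in WT stroma (13.1 to 18.9). WT epithelium was the pool with the low Cd34 share, and both epithelium pools had the high Ramp2 share. Esam ran from 9.18% in KO epithelium (7.44 to 11.2) to 16.0% in WT stroma (13.3 to 19.1), with no overlap of these intervals. Cdh5 stayed between 14.0% and 16.0% in the 4 pools, and Egfl7 between 14.7% and 18.8%.

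**Figure D4:**
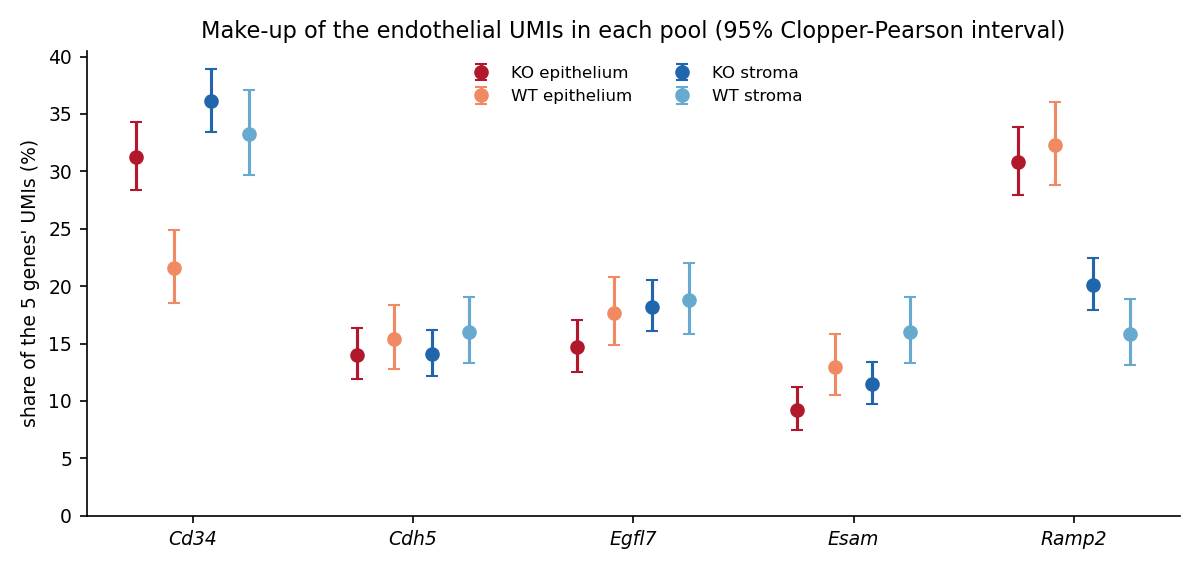
Share of each gene in the summed UMIs of the 5 endothelial genes with values in all pools, in percent, with 95% Clopper-Pearson intervals. The Cd34 share is lowest in WT epithelium (21.6%), and the Ramp2 share is above 30% in both epithelium pools and at 20.1% and 15.9% in KO and WT stroma.

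Other genes used as markers of blood endothelium came from a list of 39, and they did not share 1 direction between compartments. In KO 12 were listed, with 9 called lower in epithelium (4.45% of all genes) and 1 called higher, and the median log2 ratio was -1.21. In WT 10 were listed, with 8 called lower (15.7% of all genes) and 1 higher, and a median of -1.62. Only 4 of the 12 in KO and 3 of the 10 in WT were above 1 in both compartments, and the listing through stroma alone had fixed the direction of all the others. The 4 in KO had a median log2 ratio of -0.29, with Sparcl1 and Ly6c1 called lower in epithelium and Sox17 and Gata2 above 1-fold there. The 3 in WT had a median of 0.78, with Sparcl1 called lower and Sox17 and Gata2 again above 1-fold. Among the genes listed through stroma alone, the claudin gene Cldn5, which encodes the tight junction protein of brain and other endothelium, was at 0.404-fold in KO and 0.218-fold in WT. The water channel gene Aqp1 was at 0.280-fold in KO and 0.218-fold in WT, and the surface receptor gene Cd93 at 0.413-fold in KO and 0.211-fold in WT. Cav1, which encodes the main protein of caveolae, was at 0.419-fold in KO and 0.254-fold in WT. Tm4sf1 was called in both genotypes, at 0.406-fold in KO and 0.492-fold in WT. Epas1, which encodes a hypoxia-inducible factor, was also called in both, at 0.446-fold in KO and 0.294-fold in WT. The endomucin gene Emcn was called in KO (0.393-fold), and its value in WT stroma is not analysed here. The matrix gene Sparcl1, above 1 in both compartments, was at 0.525-fold in KO and 0.358-fold in WT. Several of these are also made by stroma or muscle cells. Sox17, a transcription factor gene of arterial endothelium that is also active in uterine epithelium, was called higher in epithelium, at 2.22-fold in KO (5.43% of all genes called higher) and 2.90-fold in WT (13.1%). Gata2, named after its values were seen, encodes a transcription factor of endothelium and of uterine cells, and stood at 1.28-fold in KO and 1.72-fold in WT without a call. None of this list was called between genotypes, with 13 listed in epithelium (median log2 ratio 0.06) and 7 in stroma (median -0.56, 4 of them above 1 in WT alone).

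Ligands, partners and effectors of the endothelial receptors were taken from a list of 33. The growth factor gene Vegfa, whose product binds the receptors encoded by Flt1 and Kdr, had 192 (KO) and 171 (WT) UMIs in the epithelium pools and 165 (KO) and 112 (WT) in the stroma pools, and was called in no comparison. Its ratio of epithelium over stroma was 0.850 in KO (0.687 to 1.05) and 0.601 in WT (0.471 to 0.769). In WT it was listed through stroma alone, which fixed its direction. The authors' deposited table gives it adjusted p-values of 0.985 in KO and 0.0617 in WT. Vegfb had 113 UMIs in KO epithelium, 110 in WT epithelium and 92 in KO stroma. Calcrl, which encodes the receptor that Ramp2 partners, had 81 UMIs in KO epithelium, 63 in WT epithelium and 95 in KO stroma. Its ratio of epithelium over stroma in KO was 0.623 (0.457 to 0.846) and was not called. It was listed there through stroma alone, which fixed its direction. The Ramp2 ratio in the same pools was 0.895, and Ramp2 was above 1 in both, so the 2 ratios are not on equal terms. Tgfbr2, the type II receptor gene of the transforming growth factor beta pathway in which endoglin acts, was called lower in epithelium in both genotypes, at 0.517-fold in KO and 0.376-fold in WT. The authors' deposited table gives it adjusted p-values of 0.0150 in KO and 7.43e-05 in WT, where it was listed through stroma alone. Hif1a was called higher in epithelium in WT (1.80-fold, 1.36 to 2.41; adjusted p 0.0413, authors' deposited table), where it was listed through epithelium alone. It encodes a hypoxia-inducible factor. No other listed gene of this list was called in any comparison (10 listed between compartments in KO, 6 in WT, 12 between genotypes in epithelium and 4 in stroma). Pgf, Nrp1, Adm and Acvrl1 are not analysed here.

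The pattern of the set over the 4 pools was set beside that of other genes. Among 1679 genes with at least 30 UMIs in every pool, those closest to the mean pattern of the 5 endothelial genes were Serping1, Fxyd1, Htra3, Axl and Celf2. Their Euclidean distance on log2 levels, centred per gene, ran up to 0.145, where the median over all other genes was 1.15. The endothelial genes' own distances to their mean were 0.101 for Cdh5, 0.216 for Egfl7, 0.509 for Esam, 0.599 for Cd34 and 0.894 for Ramp2. Serping1, which encodes the inhibitor of the first complement component, had 230 (KO) and 160 (WT) UMIs in the epithelium pools and 275 (KO) and 154 (WT) in the stroma pools. With 4 pools the measure rests on 4 values per gene.

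Other vessel cells and the surrounding tissue give the frame for these levels. Pericyte genes (2 of 10 with values in all pools, Rgs5 and Pdgfrb) summed to levels of 148 (KO) and 93.6 (WT) in the epithelium pools, and 222 (KO) and 213 (WT) in the stroma pools. Fibroblast genes stood at 0.432 of their WT stroma level in KO epithelium, 0.311 in WT epithelium and 0.857 in KO stroma. For the 5 endothelial genes these values were 0.542, 0.401 and 0.930. Rgs5, Pdgfrb, Cd34, Cdh5, Egfl7 and Esam were listed between compartments in WT through stroma alone, which favours a low WT epithelium value. No listed marker of these lists was at 0 in a pool.

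**Figure D5:**
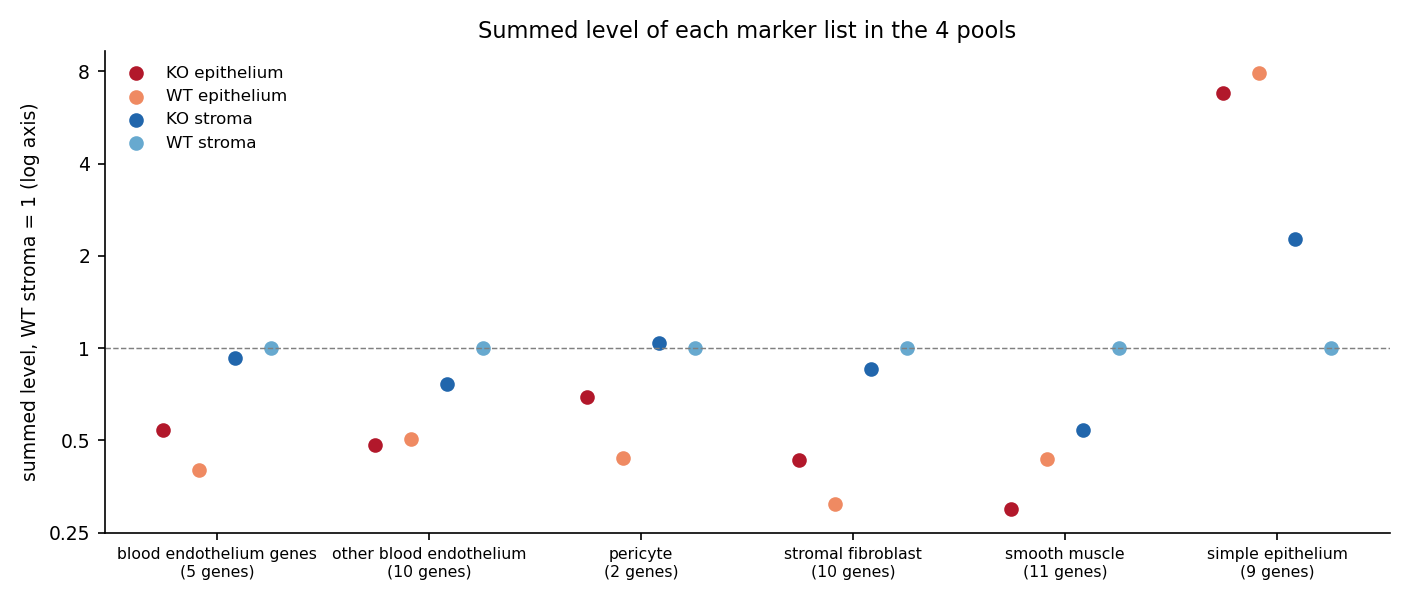
Summed level of each marker list in the 4 pools, relative to WT stroma, on a log axis, over the genes with values in all pools. The sums of the 5 endothelial genes, pericytes and fibroblasts rank WT epithelium below KO epithelium and both below the stroma pools. In WT, Rgs5, Pdgfrb, Cd34, Cdh5, Egfl7 and Esam were listed between compartments through stroma alone, which favours a low WT epithelium value. The other blood endothelium genes stand at 0.484 in KO epithelium and 0.506 in WT epithelium. Their sum includes Sox17 and Gata2, whose levels were higher in epithelium than in stroma in both genotypes. Smooth muscle is lowest in KO epithelium (0.298), and simple epithelium is highest in WT epithelium (7.92). The simple epithelium genes were listed between compartments in WT through epithelium alone.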

How the data were processed

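Uterine cryosections of 10 µm from 4 KO and 4 WT mice were made into Visium libraries, per the labels' protocols. GRCm38 is the build that the submitters' processing notes name. The sources used here do not give the aligner, how spots were named or the statistical test. Per the file headers, the 4 deposited tables hold an average per group (a signal, here a UMI sum over a size factor sum), a log2 fold change and an adjusted p-value (FDR), with the animals of a genotype pooled.

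Least squares on the authors' deposited log2 folds gave the size factor sums, after which 100% of averages gave UMI sums within 0.01 of a whole number. Of 6852 sums seen in 2 tables, 0 differed. Folds are scaled ratios of these sums without a pseudocount, with exact 95% Clopper-Pearson intervals, and levels carry exact Poisson intervals. The recovery of sums and the fold intervals were checked on simulated tables of Poisson counts. These held no spread between spots or animals, so the check covers counting error only. A gene was called at a deposited adjusted p-value under 0.05, no p-value was computed here, and no count model was fitted, since each group is 1 pool. Whether the deposited p-values reflect spots or animals is not stated.

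The genes and lists were chosen with earlier results of these data known. Named were all 9 genes, called genes of both pathway lists (up to 6 per direction and table, by absolute log2 fold), fixed ligands and receptors, and the 5 genes closest in pattern. Of other marker lists, at most 2 genes were named. Of 5828 gene IDs, 5826 were found in GENCODE M21. Alternatives were a threshold of 0.01, a log2 fold of at least 1, dropping the lowest 25% of genes by level, centring on the median gene, scaling by total UMIs and leaving out each member. Python 3.11.15 with NumPy 2.4.6, SciPy 1.17.1, pandas 2.3.3 and matplotlib 3.10.9 was used.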

Additional observations from a re-analysis of the deposited data

How the results depend on the processing

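At an adjusted p of 0.01, 1 of the endothelial genes was called between compartments in KO and 4 in WT. Without the lowest 25% of genes by level, 2 genes were called between compartments in WT, since Esam and Cdh5 drop out of the table by construction. A minimum log2 fold of 1 left 2 called in KO, since Cd34 stood at -0.98 in the authors' deposited table. No gene was called between genotypes under any of these 3 settings. Centring on the median gene, scaling by total UMIs and the authors' deposited folds left all 22 gene values within their counting intervals. Leaving out each gene in turn moved the ratio of the sums over a range of 1.22 to 1.42 for KO over WT in epithelium, 0.883 to 0.980 in stroma, 0.520 to 0.630 for epithelium over stroma in KO and 0.323 to 0.472 in WT. The lowest ratio between compartments was without Ramp2 in both genotypes. Uncalled values that turned direction were Cd34 between genotypes in stroma (0.991 by total UMIs) and Esam in epithelium (1.03 when centred). The 5 genes closest in pattern were shared by both settings, since centring shifts all genes alike. No paired analysis was possible because each deposited value already merges the 4 animals of its genotype, and no replicate could be left out. Depth limits the set, with 64 to 439 UMIs per gene and pool.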

Other observations

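Other cells of vessels and blood had few listed genes, which limits any reading as groups. Values here are given for single genes or as counts, and the pericyte sums above rest on 2 genes. Ccl21a, a chemokine of lymphatic endothelium with near-identical copies that make its count uncertain, was the 1 listed gene of 7 lymphatic markers. It had 70 UMIs (KO) and 39 UMIs (WT) in the epithelium pools and 216 (KO) and 38 (WT) in the stroma pools. Its ratio of epithelium over stroma in KO was 0.237 (0.178 to 0.311; adjusted p 0.0170, authors' deposited table). Its ratio of KO over WT in stroma was 2.83 (1.99 to 4.10; adjusted p 0.878, authors' deposited table). It was listed in both tables through KO stroma alone, which fixed both directions.

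Red cell transcripts, which mark blood held in vessels, were listed between genotypes in stroma through WT stroma alone for all 3 listed genes, so a lower value in KO was fixed by the listing, and none was called. The stroma pools held 162 (KO) and 204 (WT) UMIs of Hbb-bs, a ratio of 0.395 (0.319 to 0.488; adjusted p 1, authors' deposited table). Hba-a1, whose near-identical copy Hba-a2 makes its count uncertain, had 91 (KO) and 121 (WT) UMIs there (0.374-fold, 0.282 to 0.495; adjusted p 1, authors' deposited table). The 5 endothelial genes together had a ratio of 0.930 in the same pools. Between compartments, 3 of 3 listed red cell genes were called lower in epithelium in WT (15.7% of all genes). In KO 2 were listed and none was called. All of these were listed through stroma alone, which fixed their direction. Between genotypes in epithelium Hbb-bs was listed through KO alone (1.66-fold, 1.13 to 2.45) and was not called.

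The pericyte gene Rgs5 was called lower in epithelium than in stroma in KO (0.521-fold, 0.428 to 0.633, 4.45% of all genes). It was also called lower in WT (0.322-fold, 0.244 to 0.423, 15.7% of all genes). Pdgfrb, the other listed pericyte gene, was called in neither (KO 0.858-fold, 0.705 to 1.04, and WT 0.594-fold, 0.453 to 0.782). In WT both were listed through stroma alone. Between genotypes in epithelium the ratio of KO over WT was 1.67 for Rgs5 (1.30 to 2.15, adjusted p 1 in the authors' deposited table). For Pdgfrb it was 1.52 (1.23 to 1.89), also without a call. Of 12 leukocyte and platelet genes, 5 were listed between compartments in KO, with 2 called lower in epithelium (4.45% of all genes), of which 1 was listed through stroma alone. In WT 2 were listed and none was called lower (15.7% of all genes). The 1 listed gene of 6 mesothelium markers, Wt1, was called in no comparison.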
